A study of Mus musculus with 9 samples.

Results

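Cardiac fibroblasts were followed here through 8 genes that mark them at rest or after activation: Pdgfra, Tcf21, Ddr2, Postn, Fap, Meox1, Cilp and Comp. A gene was taken from the array table where a probe set was annotated to it alone. Each of the 8 had 1 such probe set, and together they were 8 of 18820 genes tested. The right ventricle of 9 female C57BL/6 mice was measured, with 1 array per mouse and 3 mice per group. All mice arrived at 8 weeks of age and received their diet for 2 weeks before injections began at 10 weeks of age, according to the labels. The methods state a shorter lead-in. Sham mice received subcutaneous saline and MCT mice monocrotaline at 600 mg/kg, weekly for 8 weeks, both on the standard AIN-93M diet. Monocrotaline is a plant alkaloid used to injure the pulmonary vessels and so load the right ventricle. MCT + NI mice received the same injections on an isocaloric diet enriched in protein, leucine, oligosaccharides and fish oil, the nutritional intervention (NI). By the paper's supplement, MCT + NI mice ate less in total than MCT mice and sham mice, so diet and intake differed together. No group received the NI diet with saline. For the arrays, mice of similar disease severity were selected by the study, so they were not a random draw of the cohort.

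Fibroblasts hold the collagen scaffold of the heart. Resting cells carry the growth factor receptor PDGFRα and the transcription factor TCF21. Under pressure load or injury they spread, take up contractile fibres and secrete matrix, and cells that settle in a scar can express cartilage-like matrix proteins such as CILP and COMP. The array of a whole piece of muscle sums over all of its cells, so more cells of a type and more RNA per cell cannot be told apart in any of the values below.

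Values are log2 intensities as the authors deposited them, after robust multi-array analysis (RMA). They were compared between mice within a gene and never between genes, because probe sets differ in brightness. Array medians lay between 4.77 and 4.79. Transcripts of ventricular cardiomyocytes were high in every mouse, with a summed linear level of 11 markers between 61911 and 64314. The arrays also held transcripts of the atrium, and these set some mice apart from their group. The mean log2 level of 6 atrial markers (Myl7, Myl4, Sln, Nppa, Bmp10 and Dkk3) was 10.17, 11.05 and 10.95 in the sham mice. It was 5.13 in MCT mouse 640, 5.50 in MCT mouse 641 and 10.69 in MCT mouse 644. It was 9.16 in MCT + NI mouse 615, 6.01 in mouse 617 and 5.24 in mouse 619. MCT mouse 644 and MCT + NI mouse 615 thus lay nearer to sham mice than to their own groups. The marker values without them, or with the atrial mean as a covariate, are given beside the calls that these settings changed. No sham mouse had a low atrial mean, so the covariate is partly confounded with group. Its adjustment rests mainly on mice 644 and 615.

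The sequences upstream of Postn, Cilp and Ddr2 are shown, taken from RefSeq (build GRCm38.p6), because these genes lay above sham in every MCT mouse and had a start site in the promoter table used. Each line holds the 250 bases before the start, 5′ to 3′ on the strand of the gene. Capitals mark matches on either strand to 6 motifs. These were CANNTG (the E-box bound by basic helix-loop-helix factors such as TCF21), CAGAC (bound by SMAD factors), CATTCC (bound by TEAD factors), TGANTCA (bound by AP-1), the CArG box (bound by serum response factor) and TATAAA (the TATA box).
Postn, chr3:54360857-54361106, plus strand: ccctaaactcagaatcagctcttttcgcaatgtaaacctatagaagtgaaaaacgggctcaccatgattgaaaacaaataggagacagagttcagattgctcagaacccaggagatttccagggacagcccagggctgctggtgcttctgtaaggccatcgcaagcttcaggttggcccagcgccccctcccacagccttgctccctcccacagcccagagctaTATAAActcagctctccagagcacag
Cilp, chr9:65264930-65265179, plus strand: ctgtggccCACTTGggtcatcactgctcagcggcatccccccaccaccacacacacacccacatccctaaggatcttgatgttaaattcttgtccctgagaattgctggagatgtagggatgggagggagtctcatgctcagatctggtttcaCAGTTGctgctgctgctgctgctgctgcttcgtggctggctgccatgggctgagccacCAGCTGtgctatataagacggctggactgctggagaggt
Ddr2, chr1:170088945-170089194, minus strand: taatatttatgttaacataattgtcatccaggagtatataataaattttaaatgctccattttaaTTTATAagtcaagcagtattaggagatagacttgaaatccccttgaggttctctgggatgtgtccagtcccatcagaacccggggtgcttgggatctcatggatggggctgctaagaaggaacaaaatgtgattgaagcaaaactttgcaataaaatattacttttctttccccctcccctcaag
Postn had TATAAA at position -26 from the start, Cilp had CANNTG at -242, -97 and -39, and Ddr2 had TATAAA at -185 on the opposite strand. Of the 8 markers, 5 matched the table with 6 windows, since Postn has an upstream start site as well. In the full windows of 300 bases, CANNTG stood in 3 of 6, against 72.3% of all 32851 windows. CAGAC stood in 3 of 6 (49.6% of all) and TATAAA in 2 of 6 (13.6% of all). The TEAD, AP-1 and CArG motifs had no match in the 6 windows (14.7%, 7.81% and 1.63% of all). A match is a run of letters and not a bound site.

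MCT against sham mice asks which fibroblast markers differ in the right ventricle after monocrotaline. Meox1, Postn and Ddr2 were higher in MCT mice, by 4.37-fold, 2.22-fold and 1.41-fold. Cilp was 2.08-fold higher in the mean without passing the adjusted threshold. Fap, Tcf21, Pdgfra and Comp did not pass it in either direction. By limma with Benjamini-Hochberg adjustment over all genes at 0.05, 3 of the 8 markers were higher and 0 lower, where 4.65% of all genes tested were higher and 1.61% lower. The markers were chosen with earlier results of these data known. Counts set beside such shares, here and below, are therefore descriptions and not a test of the markers. The median log2 difference of the 8 was 0.36, against -0.02 over all genes. The groups did not overlap for 5 of the 8, with 4 higher and 1 lower in MCT mice. Of all genes 21.9% did not overlap, 11.7% higher and 10.2% lower. An exact two-sided permutation test of 3 against 3 mice gave p = 0.1 for each of these 5, the smallest p this design allows.

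**Figure D1:**
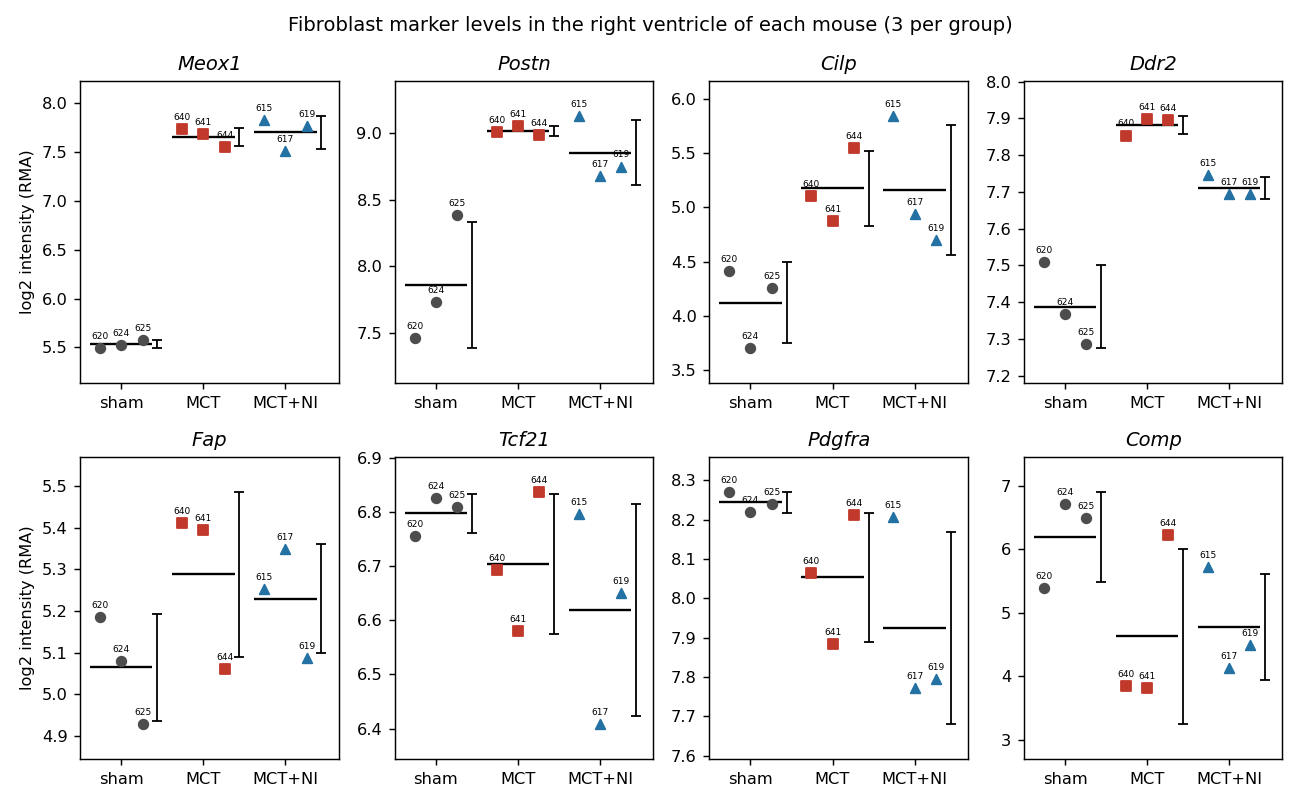
Log2 intensity (y axis, a scale of its own in each panel) of the 8 fibroblast markers in each mouse, with mouse numbers beside the points. Horizontal lines are group means and vertical bars SD (n = 3). Meox1, Postn, Cilp and Ddr2 separate sham from both MCT groups, while Comp, Tcf21 and Pdgfra are high in MCT mouse 644 and MCT + NI mouse 615.

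Meox1 encodes a homeobox factor that is switched on in stressed cardiac fibroblasts. Its log2 level was 5.50, 5.52 and 5.58 in the sham mice, 7.74, 7.68 and 7.56 in the MCT mice and 7.83, 7.52 and 7.77 in the MCT + NI mice. All 6 MCT-injected mice lay far above all sham mice, and the injected groups overlapped each other. The group means were 5.53 ± 0.041, 7.66 ± 0.094 and 7.71 ± 0.17 (SD, n = 3). The log2 difference between MCT and sham mice was 2.13 (SE 0.086), with a limma adjusted p of 7.08e-06. Counted from the highest, it was number 15 of all 18820 differences, and it was number 4 by p-value. MCT mouse 644, with the atrial pattern of sham mice, was 2.03 above the sham mean, and MCT + NI mouse 615 was 2.30 above it. With the atrial mean as a covariate the difference was 2.10 (adjusted p = 0.000215). Meox2, the paralogue of Meox1, was also higher in MCT mice, by 0.79 (SE 0.16, adjusted p = 0.019). Without sham mouse 625, MCT mouse 640 or MCT mouse 641, 1 of the 19 fate factors passed in place of 2.

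Postn encodes periostin, a matricellular protein secreted by activated fibroblasts. Levels were 7.47, 7.73 and 8.39 (log2) in the sham mice, 9.005, 9.05 and 8.98 in the MCT mice and 9.13, 8.67 and 8.75 in the MCT + NI mice. The sham mice spread widely, with mouse 625 closest to the injected mice, while the MCT mice were nearly equal. The means were 7.86 ± 0.47, 9.01 ± 0.036 and 8.85 ± 0.24. MCT mice differed from sham mice by 1.15 (SE 0.21, 95% interval 0.68 to 1.62, adjusted p = 0.0125). The call was lost without sham mouse 624 (adjusted p = 0.0552), without MCT mouse 640 (0.0513) or without MCT mouse 641 (0.0517). With the atrial mean as a covariate the difference was 1.29 (adjusted p = 0.0541).

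Ddr2 encodes discoidin domain receptor 2, a receptor tyrosine kinase for fibrillar collagen that fibroblasts carry. The log2 values were 7.51, 7.37 and 7.29 in the sham mice, 7.85, 7.90 and 7.89 in the MCT mice and 7.75, 7.69 and 7.69 in the MCT + NI mice. The groups formed 3 separate bands, with sham lowest, MCT + NI in the middle and MCT highest. MCT + NI mice 617 and 619 carry exactly the same deposited value, so the spread of that group may be understated. The means were 7.39 ± 0.11, 7.88 ± 0.025 and 7.71 ± 0.031. The difference between MCT and sham mice was 0.49 (SE 0.058, adjusted p = 0.0015). It lay between 0.44 and 0.55 under every alternative tried by limma and passed in each.

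Cilp encodes a cartilage intermediate layer protein that mature scar fibroblasts secrete. Sham mice had log2 levels of 4.41, 3.70 and 4.26, against 5.11, 4.87 and 5.55 in the MCT mice and 5.85, 4.94 and 4.70 in the MCT + NI mice. Every injected mouse lay above every sham mouse, and MCT + NI mouse 615 was highest. The probe set was dim, with a mean of 4.82 against a median of 5.42 over all genes. MCT mice differed from sham mice by 1.06 (SE 0.31, 95% interval 0.35 to 1.76, adjusted p = 0.0911). It passed without MCT + NI mouse 615, with the same difference and an SE of 0.23 (adjusted p = 0.0374), and with the atrial mean as a covariate (1.59, adjusted p = 0.0368).

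Fap encodes fibroblast activation protein, a surface protease of activated fibroblasts. Its log2 level was 5.19, 5.08 and 4.93 in the sham mice, 5.41, 5.40 and 5.06 in the MCT mice and 5.25, 5.35 and 5.09 in the MCT + NI mice. MCT mouse 644 and MCT + NI mouse 619 lay among the sham mice, so the groups overlapped. The difference between MCT and sham mice was 0.22 (95% interval -0.04 to 0.49, adjusted p = 0.344). The probe set was below the median level of all genes.

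Tcf21 encodes the helix-loop-helix factor of resting fibroblasts. The log2 values were 6.76, 6.83 and 6.81 in the sham mice, 6.69, 6.58 and 6.84 in the MCT mice and 6.80, 6.41 and 6.65 in the MCT + NI mice. The highest of the 9 values was that of MCT mouse 644 and the lowest that of MCT + NI mouse 617. MCT minus sham was -0.09 (95% interval -0.32 to 0.14, adjusted p = 0.67).

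Pdgfra encodes a receptor for PDGF ligands and is the usual surface marker of resting fibroblasts. Its log2 level was 8.27, 8.22 and 8.24 in the sham mice, 8.06, 7.89 and 8.21 in the MCT mice and 8.21, 7.77 and 7.80 in the MCT + NI mice. All injected mice lay below all sham mice, with MCT mouse 644 and MCT + NI mouse 615 just under them. The means were 8.24 ± 0.026, 8.05 ± 0.16 and 7.92 ± 0.24. MCT minus sham was -0.19 (SE 0.12, adjusted p = 0.43), so the separation did not pass the test.

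Comp encodes cartilage oligomeric matrix protein, the thrombospondin family member of scar fibroblasts, tendon and cartilage. Its log2 level was 5.38, 6.71 and 6.49 in the sham mice, 3.84, 3.82 and 6.22 in the MCT mice and 5.72, 4.13 and 4.49 in the MCT + NI mice. MCT mice 640 and 641 were the lowest of the 9, while MCT mouse 644 lay among the sham mice. The difference between MCT and sham mice was -1.57 (SE 0.69, adjusted p = 0.249). Without MCT mouse 644 it was -2.36 (adjusted p = 0.0393). The probe set was below the median level of all genes.

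Comp, Pdgfra and Tcf21 were lower in the mice with low atrial transcripts, within the MCT group and within the MCT + NI group. Relative to the sham mean, Comp was -2.35 and -2.38 in MCT mice 640 and 641, which had low atrial levels, and 0.02 in mouse 644. Pdgfra was -0.18, -0.36 and -0.03 in the same mice, and Tcf21 was -0.10, -0.22 and 0.04. In MCT + NI mouse 615 Comp was -0.47 and Pdgfra -0.04, against -2.06 and -0.47 in mouse 617 and -1.71 and -0.45 in mouse 619. With the atrial mean as a covariate the MCT minus sham differences turned from negative to 0.014 for Comp, 0.035 for Pdgfra and 0.068 for Tcf21, with adjusted p-values of 0.992, 0.929 and 0.847. Without MCT mouse 644 and MCT + NI mouse 615 together they were -2.36 for Comp (adjusted p = 0.0201), -0.27 for Pdgfra (0.0668) and -0.16 for Tcf21. The part of atrial tissue in these 3 values was not tested. Relative to the sham mean Meox1 was 2.21, 2.15 and 2.03 in MCT mice 640, 641 and 644, Postn 1.14, 1.19 and 1.12, and Ddr2 0.47, 0.51 and 0.51. In MCT + NI mouse 615, which had more atrial transcripts, all 3 were higher than in mice 617 and 619. There Meox1 was 2.30 against 1.98 and 2.24, Postn 1.26 against 0.81 and 0.89, and Ddr2 0.36 against 0.31 in both. Cilp was highest in the mouse with most atrial transcripts of each injected group. Relative to the sham mean it was 1.43 in MCT mouse 644, against 0.99 and 0.75 in mice 640 and 641. In MCT + NI mouse 615 Cilp was 1.73, against 0.82 and 0.58 in mice 617 and 619.

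**Figure D2:**
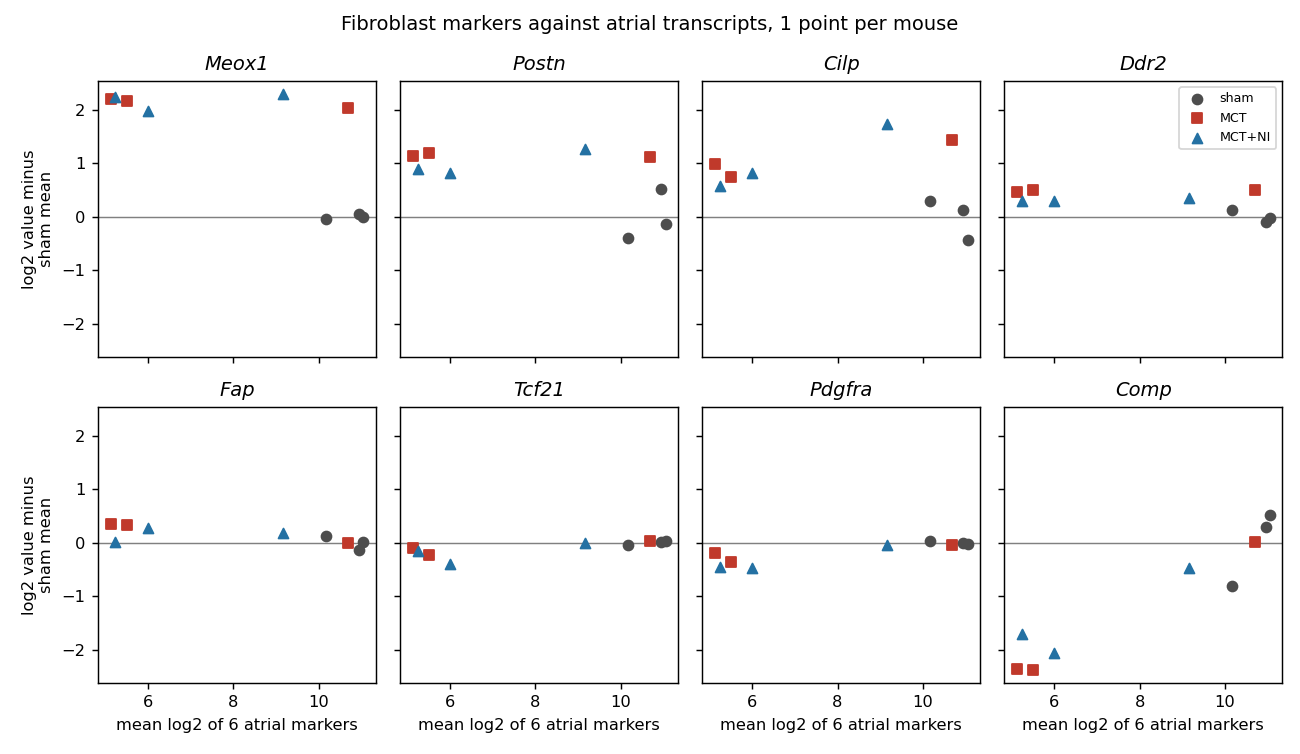
Level of each fibroblast marker minus its sham mean (y axis, log2 units) against the mean log2 level of 6 atrial markers (x axis), 1 point per mouse. Meox1, Postn, Cilp and Ddr2 are above sham at low and at high atrial levels. Comp lies between -2.38 and -1.71 in the mice with low atrial levels and between -0.81 and 0.51 in the others.

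**Figure D3:**
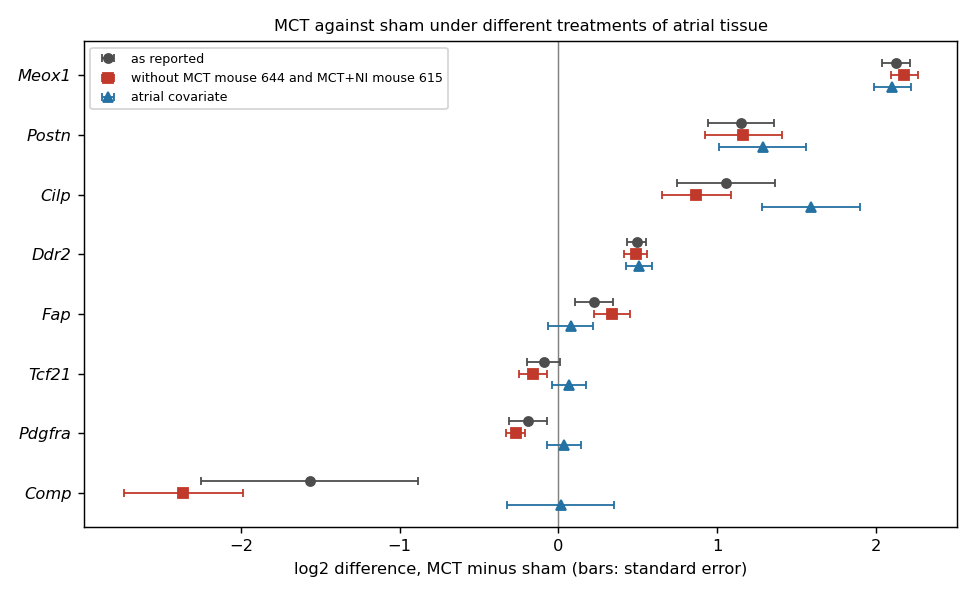
Log2 difference between MCT and sham mice (x axis) with standard errors as bars for each fibroblast marker, in the fit of all 9 mice, without MCT mouse 644 and MCT + NI mouse 615, and with the atrial mean as a covariate. Comp moves from -1.57 to -2.36 and 0.014, while Meox1 stays between 2.10 and 2.18.

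MCT + NI against MCT mice asks whether the diet altered the markers in injected mice. No marker differed at the adjusted threshold, and no gene of the 18820 did (0%). At an unadjusted p under 0.05 there were 545 genes, and 1 of the 8 markers, Ddr2, was among them, where 2.9% of all genes were and 1.3% were lower. Ddr2 was lower with NI by 0.17 on the log2 scale (SE 0.058, 95% interval -0.30 to -0.04, unadjusted p = 0.0172 and adjusted p = 1 by limma). Its groups did not overlap, the single such case among the 8. Of all genes 6.08% did not overlap, 3.11% higher and 2.96% lower with NI. The exact permutation p was 0.1. This comparison uses the same MCT mice as that with sham, so their values enter both with opposite signs. With the atrial mean as a covariate, 1 of the 18820 genes was higher with NI at the adjusted threshold. It belonged to the atrial markers that form that mean.

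The intervals show how far the other markers could differ with NI. For Meox1 the difference was 0.05 with a 95% interval of -0.15 to 0.24, which corresponds to 0.902-fold to 1.18-fold. For Postn it was -0.16 (interval -0.64 to 0.31). For Cilp it was -0.02 (interval -0.72 to 0.69) and for Comp 0.16 (interval -1.40 to 1.71), so these probe sets could hide differences in either direction. For Fap, Tcf21 and Pdgfra the differences were -0.06, -0.09 and -0.13, none with an adjusted p below 1. The median of the 8 was -0.07, against -0.0046 over all genes.

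**Figure D4:**
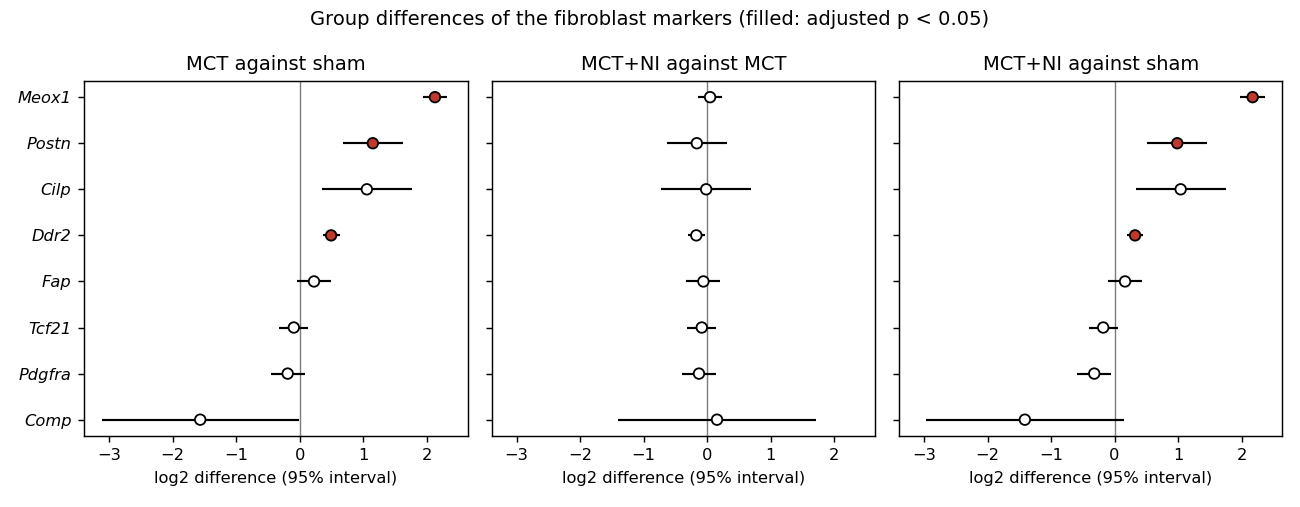
Log2 differences (x axis) with 95% intervals for the 8 fibroblast markers in the 3 comparisons; filled points have a limma adjusted p under 0.05. Meox1, Postn and Ddr2 are filled against sham in both injected groups, and no point is filled between MCT + NI and MCT mice.

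MCT + NI against sham mice asks how far the markers lay from sham when monocrotaline and the diet were combined. By limma 3 of 8 markers were higher and 0 lower, where 4.52% of all genes were higher and 1.75% lower. The groups did not overlap for 5 of the 8, with 4 higher and 1 lower. Of all genes 21% did not overlap, 10.7% higher and 10.3% lower. Meox1 differed by 2.17 (4.52-fold, adjusted p = 6.52e-06), Postn by 0.99 (1.98-fold, adjusted p = 0.0258) and Ddr2 by 0.32 (1.25-fold, adjusted p = 0.0127). Cilp was 1.04 higher (adjusted p = 0.0953), and passed with the atrial mean as a covariate (1.62, adjusted p = 0.047). Pdgfra was -0.32 from sham with no overlap (adjusted p = 0.177). Without MCT + NI mouse 615, Pdgfra was -0.46 (adjusted p = 0.0294), and neither Postn (adjusted p = 0.096) nor Ddr2 (0.057) passed. Postn was also lost without sham mouse 620 (0.0659), sham mouse 624 (0.0968) or MCT + NI mouse 619 (0.0762). With the covariate Postn was 1.14 (adjusted p = 0.108) and Ddr2 0.34 (0.102), and neither passed. Comp was -1.41 (adjusted p = 0.307). Leaving out MCT mouse 644 and MCT + NI mouse 615 together, Comp was -1.88 and passed (adjusted p = 0.0492), as did Pdgfra at -0.46 (0.0139), while with the covariate Comp turned to 0.30 (0.787). Without those mice Postn was 0.85 (adjusted p = 0.144) and Ddr2 0.31 (0.0844). Tcf21 was -0.18 (0.386) and Fap 0.17 (0.504). In order of level, Meox1, Postn and Cilp put sham lowest with both injected groups together above it, and Ddr2 put MCT + NI between sham and MCT. The 2 comparisons with sham share the sham mice.

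Among the 8 markers, Meox1, Postn, Cilp and Ddr2 varied together over the 9 mice, with Pearson r between 0.77 (Postn and Ddr2) and 0.90 (Postn and Meox1). Pdgfra, Tcf21 and Comp formed a further set, with r between 0.79 and 0.89. Fap ran against Comp (r = -0.82). These values describe the 9 arrays, whose group differences they contain.

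The genes whose log2 levels were most like those of a marker over the 9 mice, among genes at or above the median level, are given as descriptions. Nearest to Meox1 were Prnd, which encodes doppel (r = 0.998), and Apln, which encodes the peptide apelin (r = 0.997). They were higher in MCT mice by 4.39 and 3.69 on the log2 scale. Which cells of the tissue carried Meox1, Prnd and Apln was not tested. Nearest to Postn were Susd2 and Eml3 (0.98 and 0.97), and nearest to Ddr2 Man2b1 and Zfp598 (0.98 and 0.97). Cilp was most like a pair of matrix genes, Prelp (0.99) and Fbln2 (0.97). Pdgfra was most like Ccn2 (0.95) and Osr1 (0.93), and Tcf21 most like Fgl2 and Sfrp2 (both 0.94). Fap was most like Mcl1 (0.96) and Rasgrp2 (0.94). Comp was most like Slc39a8 (0.98) and Mybphl (0.97), and Mybphl, a myosin binding protein gene of the atrium, differed by -3.89 between MCT and sham mice (adjusted p = 0.193).

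The partners of the markers were read from lists, also chosen with earlier results of these data known. Between MCT and sham mice 4.65% of all genes were higher and 1.61% lower. Of all 18820 genes, 413 were higher and 93 lower with the atrial covariate. Without MCT mouse 644, 747 were higher and 306 lower, and without MCT + NI mouse 615 as well, 636 and 251. Of 5 PDGF genes other than Pdgfra, 3 were higher in MCT mice and 0 lower by limma at an adjusted p under 0.05. The ligand genes Pdgfd and Pdgfb differed by 0.74 (SE 0.076, adjusted p = 0.000726) and 0.91 (SE 0.11, adjusted p = 0.00171). The receptor gene Pdgfrb, carried by pericytes and activated fibroblasts, differed by 0.47 (SE 0.065, adjusted p = 0.00318). The other ligand genes of the list did not pass, with Pdgfa at -0.06 and Pdgfc at -0.46 (adjusted p = 0.643 and 0.226).

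Of 6 collagen receptor genes listed with Ddr2, 3 were higher and 0 lower. These were the integrin genes Itga2 (1.37, SE 0.14, adjusted p = 0.000695), Itga1 (0.40, SE 0.080, adjusted p = 0.0189) and Itgb1 (0.31, SE 0.043, adjusted p = 0.00332). Ddr1, the other discoidin receptor gene, was at -0.15 (adjusted p = 0.447). Of the 7 fibrillar collagen genes, which encode the ligands of DDR2, 4 were higher: Col3a1 by 1.18, Col1a1 by 0.97, Col1a2 by 0.73 and Col5a2 by 0.71. Their median difference was 0.71, against -0.02 over all genes. Without MCT mouse 640, 2 of the 7 passed, and with the atrial mean as a covariate 2 as well.

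Of 9 receptors and partners of periostin, 3 were higher, namely the integrin gene Itgb3 (0.80, SE 0.10, adjusted p = 0.00225), the matricellular gene Tnc (1.61, SE 0.30, adjusted p = 0.0146) and the procollagen protease gene Bmp1 (0.31, SE 0.071, adjusted p = 0.0358). With the atrial covariate 1 of the 9 was higher, and without MCT mouse 644, 1 was lower. Tgfbi, the paralogue of Postn, was at -0.29 (adjusted p = 0.458). None of the 10 relatives and substrates of FAP passed, and 1 had an unadjusted p under 0.05 (19.7% of all genes), the peptidase gene Dpp7 (0.28, adjusted p = 0.0947). Dpp4, the nearest relative of Fap, was at -0.47 (adjusted p = 0.444). Among the thrombospondins, Thbs1 was 3.20 higher in MCT mice (9.22-fold, SE 0.11, adjusted p = 2.73e-06). Thrombospondin 1 activates latent TGF-β. Thbs2, Thbs3 and Thbs4 did not pass, at 0.21, 0.29 and -0.08.

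Other genes of resting fibroblasts were higher in 5 of 24 cases and lower in 0, with a median of 0.18. These were the intermediate filament gene Vim (0.92, adjusted p = 0.000322), the surface glycoprotein gene Cd34 (0.98, adjusted p = 0.00049), the basement membrane collagen gene Col15a1 (1.17, adjusted p = 0.000822), the matricellular gene Smoc2 (0.49) and the microfibril gene Mfap5 (0.76). Vim, Cd34 and Col15a1 are not limited to fibroblasts, since vascular cells express them too. Without MCT mouse 644, 2 of the 24 were lower. The widely used resting marker Dcn was at 0.03 (adjusted p = 0.887).

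Other genes of activated fibroblasts and myofibroblasts were higher in 6 of 28 cases and lower in 0, with a median of 0.27. The first by p were the tropomyosin gene Tpm4 (1.14, SE 0.074, adjusted p = 8.24e-05), the fibronectin gene Fn1 (1.45, SE 0.13, adjusted p = 0.000391) and the proteoglycan gene Aspn (1.13, SE 0.14). Acta2, the smooth muscle actin gene of myofibroblasts, did not pass, at 0.35. With the atrial covariate 3 of the 28 were higher, and without MCT mouse 644, 1 was lower. Of 10 other matrifibrocyte genes, 1 was higher (4.65% of all genes were), the matricellular gene Sparcl1 (0.59, adjusted p = 0.00372). Cilp2, the paralogue of Cilp, was at -0.97 and the cytokine-like gene Cytl1 at -1.45, and neither passed (adjusted p = 0.147 and 0.214). With the atrial covariate 4 of the 10 were higher. Without MCT mouse 644, 2 were lower, and 3 were without MCT + NI mouse 615 as well.

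Of 15 genes of TGF-β signalling, which drives fibroblast activation, 1 (6.67%) was higher and 0 lower. Of all genes tested 4.65% were higher, so this count was near that share. The higher gene was the ligand gene Tgfb1 (0.65, SE 0.12, adjusted p = 0.0152), and no gene of the list was higher with the atrial covariate or without sham mouse 620, sham mouse 624, MCT mouse 640 or MCT mouse 644. Without MCT mouse 644 or MCT + NI mouse 617, 1 of the 15 was lower. Of 19 factors of fibroblast fate, 2 were higher, the epicardial factor gene Wt1 (0.97, SE 0.12, adjusted p = 0.00172) and Meox2. With the atrial covariate 1 of the 19 was higher. Without MCT mouse 644, 1 was lower, and 2 were without MCT + NI mouse 615 as well.

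**Figure D5:**
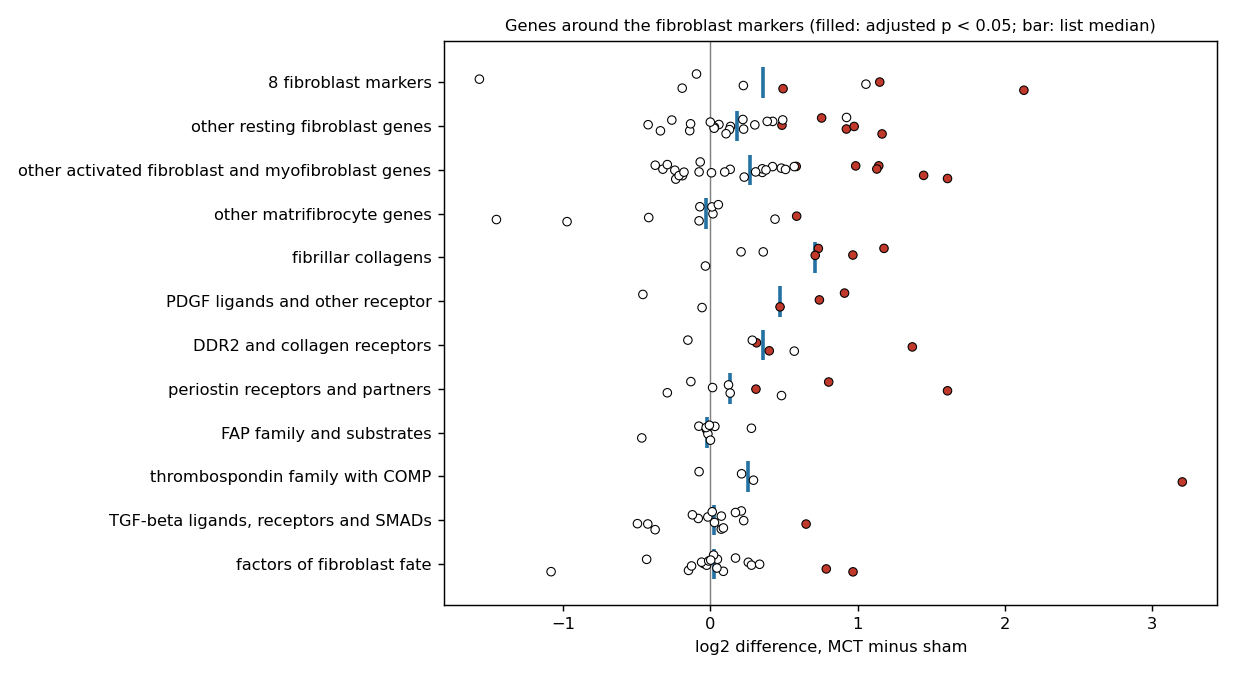
Log2 difference between MCT and sham mice (x axis) for each gene of the 8 fibroblast markers and of the lists around them (rows). Filled points have a limma adjusted p under 0.05 and vertical bars are list medians; fibrillar collagens have the highest median, 0.71, and Thbs1 lies farthest right at 3.20.

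Between MCT + NI and MCT mice no gene of these lists passed the adjusted threshold. At an unadjusted p under 0.05, Acta2 was 0.27 higher with NI (unadjusted p = 0.0156 and adjusted p = 1 by limma). The ligand gene Tgfb2 was at -0.21 (unadjusted p = 0.036 and adjusted p = 1 by limma). Between MCT + NI and sham mice, 5 of 24 resting, 6 of 28 activated, 3 of 7 collagen, 3 of 5 PDGF and 3 of 6 collagen receptor genes were higher. Of all genes 4.52% were higher in that comparison and 1.75% lower. Thbs1 differed by 3.03 there and Acta2 by 0.62 (adjusted p = 0.00446). With the atrial covariate these counts were 3 of 28 activated, 0 of 7 collagen and 1 of 6 collagen receptor genes, and 4 of 10 matrifibrocyte genes were higher in place of 1. Of the 7 collagen genes, 1 was higher without MCT mouse 644 and MCT + NI mouse 615 together and 5 were without MCT + NI mouse 617. Lower were the actin-associated gene Palld (-0.31, adjusted p = 0.0428), Cilp2 (-1.46, adjusted p = 0.0367) and the TGF-β coreceptor gene Tgfbr3 (-0.40, adjusted p = 0.0494). Lower were 2 resting, 3 activated and 3 matrifibrocyte genes without MCT mouse 644 and MCT + NI mouse 615 together, and 2 resting and 2 matrifibrocyte genes without MCT mouse 644 alone. The activated list had no lower gene once any 1 mouse other than 617 was left out. The matrifibrocyte list had none without any 1 of mice 620, 624, 625, 641, 615, 617 and 619, and the TGF-β list none without any 1 of mice 624, 625, 640, 641, 644, 615 and 619.

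Markers of other cell types moved beside the fibroblast markers, and their part in the results was not tested. Between MCT and sham mice 4.65% of all genes were higher and 1.61% lower, the shares beside which the counts below stand. Of 14 smooth muscle and pericyte markers, 8 were higher in MCT mice and 0 lower, and 4 were higher with the atrial covariate. Their summed linear level was 8816 to 9339 in sham, 9886 to 11541 in MCT and 10868 to 11432 in MCT + NI mice. Bright probe sets weigh most in such a sum. The brightest of this list in sham mice were Des and Abcc9, with log2 means of 11.49 and 11.04 in sham and 11.47 and 11.06 in MCT mice. Of 12 endothelial markers, 4 were higher (Cdh5, Pecam1, Esam and Egfl7) and 1 lower (Flt1), with summed levels of 5277 to 6419, 6795 to 7127 and 6340 to 7320. Of 12 macrophage markers, 3 were higher (Lyz2, Cd68 and C1qb) and 1 lower (Cd163), with summed levels of 1772 to 2160, 2375 to 3066 and 2179 to 2955. None of them was higher with the atrial covariate or without sham mouse 624, MCT mouse 640 or MCT mouse 644, and 1 was without sham mouse 620. Of 12 epicardial and mesothelial markers, 9 of them below the median level of all genes, 1 was higher (Wt1). Without MCT mouse 644 and MCT + NI mouse 615 together, 2 of these 12 were lower. Of 12 tendon, cartilage and valve markers, 9 of them below that level, 0 passed. Without MCT mouse 644, 1 was lower, and with the atrial covariate 1 was higher. Their summed level was 736 to 949 in sham, 395 to 826 in MCT and 377 to 611 in MCT + NI mice. That sum is weighted toward the brightest gene of the list, Cytl1, with log2 means of 9.18, 7.73 and 7.35. The median log2 difference of the 12 between MCT and sham mice was 0.03, with 8 positive and 4 negative. Lymphocyte markers were all below the median level of all genes, with 1 of 11 higher (Cd4). That call was lost with the atrial covariate or without sham mouse 624 or 625 or MCT mouse 640 or 644. Of 11 ventricular cardiomyocyte markers, 1 was lower (Ryr2). The Ryr2 call was lost with the atrial covariate, without an intensity trend or when the spread came from the groups compared alone. It was also lost without sham mouse 624 or 625 or MCT mouse 641. None of 9 adipocyte or 4 Schwann cell markers passed, apart from 1 lower adipocyte marker without sham mouse 624. Of the 6 atrial markers 0 passed the adjusted threshold, with a median difference of -3.47, and all 6 were lower at an unadjusted p under 0.05 (9.14% of all genes). All 6 passed without MCT mouse 644.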

How the data were processed

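Right ventricular RNA (100 ng per mouse) of 9 mice was hybridised to Affymetrix mouse gene 1.1 ST arrays. The deposited log2 values were computed by the authors with RMA, as the submitters' processing notes name it without a version. The methods name probe sets redefined by Entrez gene, whereas the deposited table carries 35556 probe sets under the manufacturer's numbers. Raw scans were not used here. No further normalization was applied, and 0 columns of values were left unused. No batch or scan date was available from the labels. Array number (3 per group) limits the precision, since intensities carry no counts. Where labels and methods name different RNA isolation and labelling kits, neither could be checked.

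Probe sets were named through the platform annotation, updated by Entrez number: 21218 had 1 gene, 1881 several and 12457 none. A gene with several was represented by its brightest, which gave 18820 genes. Group means of the 9 mice were fitted with limma 3.58.1 (R 4.3.3) and tested by empirical Bayes with an intensity trend (two-sided, Benjamini-Hochberg over all genes, threshold 0.05). Procedures were tested on simulated data. The members and lists were chosen with earlier results of these data known. Lists other than the 8 markers numbered 21, with 229 of 243 symbols measured. Named were all 8 markers, per list up to 3 called genes of smallest p and every called gene in counts of 5 or fewer, direct partners of markers, and per marker the pair of genes with the highest Pearson r. Chosen after values were seen were Dcn, Acta2, Tgfb2, Cilp2, Cytl1, Palld, Tgfbr3 and the motif TATAAA. Summed levels are sums of unlogged values, so bright probe sets weigh most in them. Alternatives were other summaries, rows, filters, scalings, variance settings, sample sets, an atrial covariate, the exact permutation test and leaving out each mouse.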

Additional observations from a re-analysis of the deposited data

How the results depend on the processing

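No paired analysis was possible because each mouse number belongs to 1 mouse and no number is shared between groups. Over the limma alternatives, 146 of 157 values for the 8 markers kept direction and side of the threshold for MCT against sham. For MCT + NI against MCT 143 of 157 did, and for MCT + NI against sham mice 140 of 157. Between MCT + NI and MCT mice no marker came near the threshold in any alternative (smallest limma adjusted p = 0.97). All 14 changes there were of direction, so 143 of 157 says nothing about the stability of a call. The exact permutation test is not counted in these totals. Meox1 kept its call against sham in every limma alternative of both comparisons. The number of markers lower in MCT than in sham mice, 0 as reported, was 1 without MCT mouse 644 and MCT + NI mouse 615 together and 0 to 1 when single mice were left out. Of all 18820 genes, 303 were lower as reported, 251 without those 2 mice and 123 to 309 when single mice were left out. The number of markers higher in MCT + NI than in sham mice, 3 as reported, was 1 when the spread came from the groups compared alone, 1 without those 2 mice and 1 to 3 when single mice were left out. Over all genes the numbers higher were 850 as reported, 623, 509 and 507 to 856 in the same order. The number of markers lower there, 0 as reported, was 2 without those 2 mice and 0 to 1 when single mice were left out. Over all genes the numbers lower were 329 as reported, 211 without those 2 mice and 118 to 372 when single mice were left out. On the forward strand alone, CAGAC stood in 1 of 6 promoter windows in place of 3, and TATAAA in 1 in place of 2.

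Directions that turned were mostly of differences near 0. For MCT against sham mice, the atrial covariate gave 0.035 for Pdgfra, 0.068 for Tcf21 and 0.014 for Comp, and for MCT + NI against sham mice 0.30 for Comp. For MCT + NI against MCT mice, the values when single mice were left out crossed 0. They ran from -0.17 to 0.020 for Tcf21 (turned without mouse 617), from -0.17 to 0.012 for Fap (without 640 or 619) and from -0.017 to 0.14 for Meox1 (without 644 or 615). They ran from -0.36 to 0.21 for Cilp (without 644, 617 or 619) and from -0.32 to 0.95 for Comp (without 640, 641 or 615). Meox1 was -0.069 without mice 644 and 615 together, and Cilp was 0.035 with array weights and 0.030 with the atrial covariate. The causes were not tested.

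The exact permutation test cannot pass 0.05 with 3 mice per group. Fap, Cilp and Comp lie below the median level of all genes, so the filter on dim genes gave no value for them, and small differences in these genes may be missed. For MCT against sham, calls over all 18820 genes numbered 876 higher and 303 lower. The atrial covariate gave 413 and 93, and leaving out MCT mouse 640 gave 553 and 123. For MCT + NI against sham there were 850 higher and 329 lower, against 335 and 66 with the covariate, 507 and 118 without MCT + NI mouse 619 and 541 and 141 without MCT + NI mouse 615.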
